A study of Homo sapiens with 9 samples.

Results

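The genes of cholesterol and fatty acid synthesis were examined across the RNA-seq libraries of OVCAR3 cells with altered *CTCFL*. The group held 32 genes, named by their place in sterol and fatty acid synthesis and in the control of both. All 32 were present in the count matrix of 60660 genes, and all 32 were among the 17794 genes with enough counts to be tested. They comprised 7 genes of the mevalonate pathway, 11 that carry farnesyl diphosphate through squalene to cholesterol, 6 regulators and carriers of the SREBP system and 8 of fatty acid synthesis and desaturation.

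OVCAR3 is an established cell line of high-grade serous ovarian carcinoma, and *CTCFL*, also called BORIS, encodes a DNA-binding paralog of CTCF that is largely restricted to the testis and to tumours. The 9 libraries were 3 of Control, 3 of CTCFL-OE and 3 of CTCFL-KD, all grown in medium with 20% serum and 0.01 mg/ml insulin, and each biological replicate pooled 3 technical replicates. Control cells received a LacZ plasmid and CTCFL-OE cells a plasmid with the human *CTCFL* open reading frame, in both cases 2 µg, and both were harvested after 48 h. The RNA of CTCFL-KD cells came from an earlier published knockdown experiment, and no control library of that experiment was analysed here. The knockdown and the other differences between those experiments therefore cannot be told apart. Serum and insulin, both of which bear on sterol and fatty acid synthesis, were the same in the stated medium of every group.

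Cholesterol synthesis begins with acetyl-CoA, which is condensed to HMG-CoA, reduced to mevalonate, built up into isoprenoid units and joined into squalene, the first molecule committed to sterols. Fatty acid synthesis draws on the same acetyl-CoA, which ATP citrate lyase releases from citrate. Both pathways are switched on by the SREBP transcription factors, which are held in the endoplasmic reticulum by the INSIG proteins while sterols are plentiful and are escorted by SCAP to the Golgi, where they are cleaved, when sterols run low. INSIG1 and the SREBP genes are themselves SREBP targets. LXR receptors, which sense oxysterols, raise *SREBF1* and the sterol exporters.

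SREBP proteins bind a sterol regulatory element, usually beside a CCAAT box bound by NF-Y, so the promoters of 4 members are shown before their values. RefSeq promoter windows on GRCh38.p14, from 250 bases before to 50 bases after the start, were found for 28 of the 32 genes, by symbol. The 160 bases before the RefSeq start are printed 5′ to 3′ in the direction of transcription, and capitals mark every match to one of 4 searched motifs on either strand. These were TCACNCCAC, a form of the sterol regulatory element, then the CCAAT box, the E-box CACGTG and, as a stretch of the CTCF motif that CTCFL also recognises, AGGGGGC. These 4 genes were chosen to show each of the motifs in genes that rose in CTCFL-KD. They lie at chr22:41832945-41833104 on the plus strand for *SREBF2*, chr7:155297718-155297877 on the plus strand for *INSIG1*, chr4:165327509-165327668 on the plus strand for *MSMO1* and chr11:71448394-71448553 on the minus strand for *DHCR7*. The *INSIG1*, *MSMO1* and *DHCR7* stretches lie partly or wholly inside the GENCODE gene, which starts farther upstream than the RefSeq start used here.
SREBF2: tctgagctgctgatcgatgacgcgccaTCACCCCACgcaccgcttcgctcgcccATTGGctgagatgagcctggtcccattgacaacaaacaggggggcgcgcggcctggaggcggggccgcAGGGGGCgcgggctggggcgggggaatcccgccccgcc
INSIG1: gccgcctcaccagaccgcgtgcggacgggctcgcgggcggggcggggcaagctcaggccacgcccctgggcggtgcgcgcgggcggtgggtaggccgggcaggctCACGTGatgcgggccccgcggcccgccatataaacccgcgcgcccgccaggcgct
MSMO1: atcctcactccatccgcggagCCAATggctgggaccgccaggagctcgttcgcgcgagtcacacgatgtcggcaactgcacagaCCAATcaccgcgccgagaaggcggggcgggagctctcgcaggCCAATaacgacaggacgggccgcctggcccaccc
DHCR7: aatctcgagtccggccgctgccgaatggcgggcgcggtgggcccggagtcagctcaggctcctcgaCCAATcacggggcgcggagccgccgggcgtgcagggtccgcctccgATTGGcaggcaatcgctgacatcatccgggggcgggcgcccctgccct

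The letters TCACNCCAC occurred in 1.13% of all 35116 RefSeq windows and in 1 of the 28 member genes, *SREBF2*, where the match began 133 bases before the start. CCAAT occurred in 34.6% of all windows and in 20 of the 28 genes, among them 9 of the 12 with a window that were DEGs in CTCFL-KD and 11 of the 16 others. The E-box CACGTG occurred in 7.26% of all windows and in 4 of the 28 genes, which were *INSIG1*, *LSS*, *SC5D* and *SCAP*. The CTCF-type stretch AGGGGGC occurred in 14.4% of all windows and in 10 of the 28 genes, 5 of the 12 DEGs and 5 of the 16 others. Some genes have several windows, and a gene was counted where any of its windows held the letters. A match is a run of letters in these windows and was not tested as a binding site.

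The counted reads per library ranged from 14332622 to 24490080, and the mitochondrial share of counts was 6.16 to 6.52% for Control, 7.40 to 14.9% for CTCFL-OE and 7.80 to 11.8% for CTCFL-KD. CTCFL-KD replicate 1 stood apart from the other 2 knockdown libraries. Over 14453 genes, its log2 ratio to their levels fell with transcript length, with a Spearman correlation of -0.63 across genes as a description, so values that it moved most are given with and without it. *CTCFL* itself (ENSG00000124092.12, GRCh38 chr20:57495966-57525652, minus strand) had counts of 6, 9 and 10 for the Control libraries, 36, 34 and 72 for CTCFL-OE and 0, 1 and 0 for CTCFL-KD. It was higher in CTCFL-OE by 2.73 ± 0.48 on the log2 scale (± SE here and below, adjusted p = 0.0287), and without any one Control library its adjusted p lay between 0.125 and 0.176. In CTCFL-KD, where every library held 3 counts or fewer, its level was at least 1.89-fold below that of Control, set against a floor of 3 counts in each library, with an adjusted p of 0.0162 that became 0.0551 without CTCFL-KD replicate 3. Counts this low leave the size of both changes imprecise. The 10 ovarian carcinoma markers checked were detected in every library, with no gene under 37.7 CPM, in which counts are divided by the TMM-scaled size of the library. The 10 fibroblast markers summed to 28.0 to 33.8 CPM in Control, 25.0 to 44.2 CPM in CTCFL-OE and 37.8 to 43.0 CPM in CTCFL-KD, and the 5 leukocyte markers to 0.200 to 0.456, 0.274 to 0.983 and 1.61 to 3.34 CPM in the same groups. Of the 4 fibroblast markers tested, 2 were DEGs higher in CTCFL-KD. These were *COL1A2*, at least 99.8-fold higher than in Control, and *POSTN*, higher by 2.74 on the log2 scale (adjusted p = 0.00295). The other 2 did not pass, *COL1A1*, the most abundant of the markers in Control, at -0.36 (29.8 CPM in Control and 23.3 CPM in CTCFL-KD) and *FAP* at -0.05. *CD14*, the 1 leukocyte marker tested, was a DEG as well, at 3.84 (adjusted p = 0.000571). *COL3A1*, too low to be tested, was at least 4.05-fold higher, while *DCN*, *THY1* and *PDGFRA* were at group means of 0.225 CPM or less. The ovarian markers summed to 5370 to 5480 CPM in Control and 9551 to 15555 CPM in CTCFL-KD, where 7 of the 10 passed higher and 2 lower, *KRT7* at -1.12 and *WT1* at -0.63 on the log2 scale. The sum thus covers changes in both directions, and the part of such marker differences in the lipid gene values was not tested.

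The member genes covered a wide range of levels in Control cells. Expressed per transcript length as TPM, *SCD*, the stearoyl-CoA desaturase that makes monounsaturated fatty acids, was the highest at 258 ± 9.33 TPM (mean ± SD, n = 3). It was followed by *HMGCS1*, *FDPS* and *FASN* at 201 ± 15.0, 177 ± 8.63 and 154 ± 7.36 TPM, which are the HMG-CoA synthase, the farnesyl diphosphate synthase and the fatty acid synthase. At the low end were *STARD4* with 11.9 ± 0.535 TPM, *INSIG2* with 5.71 ± 0.382 TPM and *CYP51A1*, the lanosterol demethylase, with 3.16 ± 0.232 TPM. Of the 31 neighbouring pairs in this order, 15 lay closer together than the sum of their SDs. The order of the levels had a Spearman correlation of 0.977 between Control and CTCFL-OE and of 0.896 between Control and CTCFL-KD across the 32 genes, which share the same libraries.

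**Figure D1:**
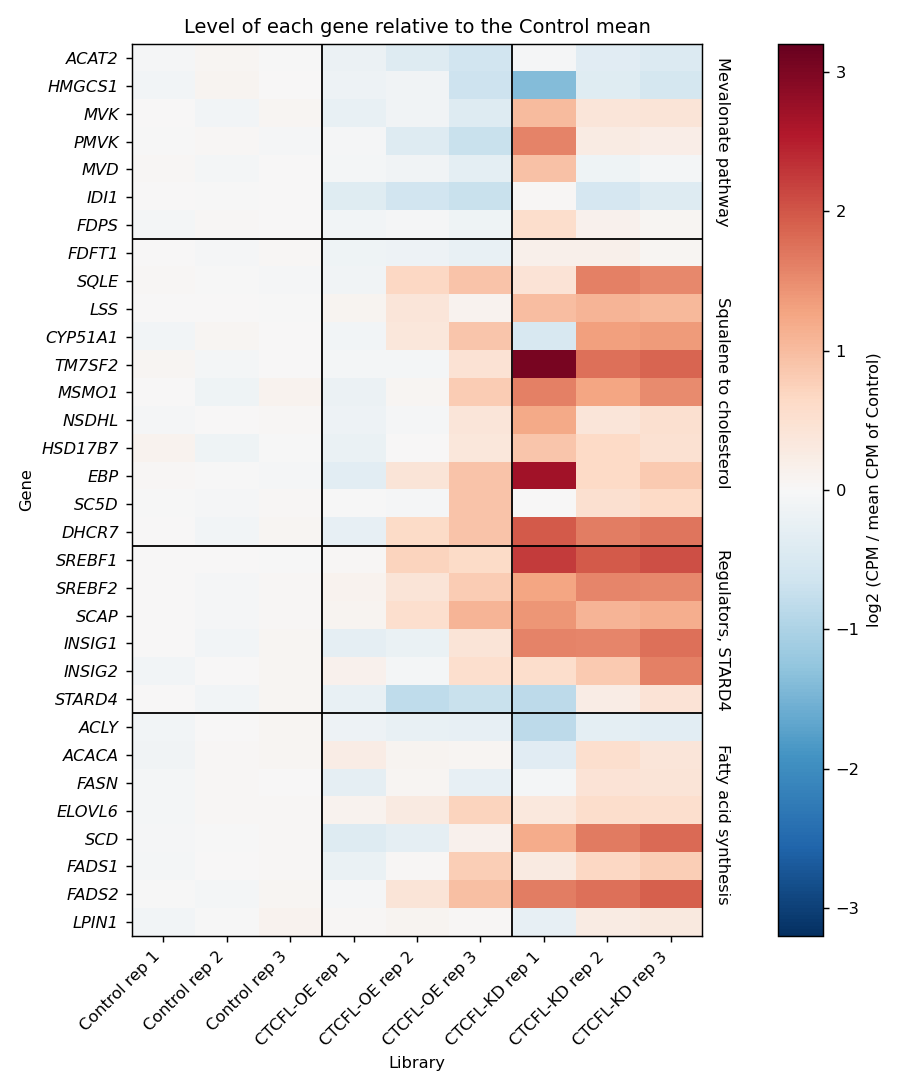
Colour shows the log2 ratio of each library's CPM to the Control mean, with the 32 genes in rows, grouped by role, and the 9 libraries in columns. Red cells fill most of the sterol and regulator rows in the 3 CTCFL-KD columns, while the rows of the mevalonate pathway are pale or blue in CTCFL-OE and mixed in CTCFL-KD.

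CTCFL-KD was compared with Control to ask which of these genes differ when *CTCFL* is low. Of the 32 genes, 16 had an adjusted p under 0.05 (edgeR quasi-likelihood test with Benjamini-Hochberg adjustment over 17794 genes), against 38.2% of all genes tested. All 16 were higher in CTCFL-KD and none was lower, whereas over all genes tested 21.4% were higher and 16.8% lower. DEGs, with a log2 fold change beyond 1 as well, numbered 13 of the 32, all higher, against 15.3% of all genes that were DEGs in that direction and 7.94% in the other. The median log2 fold change of the members was 0.72, and that of all genes tested was 0.08. The 3 CTCFL-KD libraries lay above all 3 Control libraries for 21 members, against 28.7% of all genes, and below them for 2, against 27.6%. The summed level of the 32 genes was 3928 to 4110 CPM in the Control libraries and 7180 to 8243 CPM in the CTCFL-KD libraries. In RNA of bulk cultures, a change in the number of cells that express a gene and a change in RNA per cell cannot be told apart.

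Without CTCFL-KD replicate 1, 26 members passed in this comparison, 22 higher and 4 lower, the latter being *ACAT2*, *HMGCS1*, *IDI1* and *ACLY*, and the calls over all genes tested rose as well, from 38.2 to 49.9%. With all 9 libraries, *HMGCS1* and *ACLY* also passed lower by DESeq2 (adjusted p = 0.0244 and 0.0268). Both did so in edgeR with length and GC trends removed (adjusted p = 0.0257 and 0.00322). Without any one Control library, 12 members passed, beside 25.8 to 26.8% of all genes, and the calls of *MVK*, *NSDHL*, *HSD17B7* and *EBP* were lost, with adjusted p between 0.0505 and 0.117. The other 12 members that passed, which were *SREBF1*, *SREBF2*, *SCAP*, *INSIG1*, *INSIG2*, *SQLE*, *LSS*, *TM7SF2*, *MSMO1*, *DHCR7*, *SCD* and *FADS2*, did so in 18 of 18 alternative analyses.

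The regulators had the highest median of the roles, 1.34 on the log2 scale over 6 genes, and 5 of the 6 were DEGs, all higher, against 15.3% of all genes tested. *SREBF1* (chr17:17810399-17837002), whose SREBP-1 products act chiefly on fatty acid genes, had 93.2, 93.3 and 91.7 CPM in the Control libraries, 96.0, 151 and 142 CPM in CTCFL-OE and 441, 361 and 387 CPM in CTCFL-KD. The CTCFL-KD libraries lay far above all others, and the log2 fold change against Control was 2.09 ± 0.21 (4.27-fold, adjusted p = 4.0e-05). *SREBF2* (chr22:41833105-41907306), whose SREBP-2 acts chiefly on sterol genes and whose promoter stretch above holds the letters TCACNCCAC, had 160, 154 and 165 CPM in Control, 172, 212 and 279 CPM in CTCFL-OE and 380, 471 and 460 CPM in CTCFL-KD. No CTCFL-KD library overlapped those of Control or CTCFL-OE, and the log2 fold change against Control was 1.45 ± 0.21 (adjusted p = 0.000443).

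*SCAP* (chr3:47413681-47477126), the escort that carries SREBP to the Golgi, had 123, 119 and 126 CPM in Control, 131, 179 and 260 CPM in CTCFL-OE and 327, 259 and 274 CPM in CTCFL-KD. Here the highest CTCFL-OE library reached the CTCFL-KD range, and CTCFL-KD exceeded Control by 1.22 ± 0.24 on the log2 scale (adjusted p = 0.00282). After removal of length and GC trends, *SCAP* was at 0.92 and no longer a DEG, though it passed. *INSIG1* (chr7:155297776-155310235), which retains SREBP in the endoplasmic reticulum, had 32.7, 30.3 and 33.3 CPM in Control, 26.2, 27.9 and 42.7 CPM in CTCFL-OE and 97.1, 94.4 and 109 CPM in CTCFL-KD. The CTCFL-OE libraries lay on both sides of Control, and CTCFL-KD was 3.12-fold higher than Control (log2 1.64 ± 0.21, adjusted p = 0.000189).

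*INSIG2* (chr2:118088452-118110997), the second retention protein, was expressed at a lower level, with 9.67, 10.5 and 10.7 CPM in Control, 11.3, 9.93 and 15.1 CPM in CTCFL-OE and 15.1, 18.4 and 31.7 CPM in CTCFL-KD. Replicate 3 was the highest of the CTCFL-KD libraries, and the log2 fold change of 1.08 ± 0.27 (adjusted p = 0.00995) became 0.70 without it, below the DEG limit. Genes for both the factors and their retention proteins were thus higher in the same libraries. *STARD4*, a cytosolic sterol carrier, was the regulator-group gene that did not pass, at 0.05 on the log2 scale (adjusted p = 0.909) and at 0.35 without CTCFL-KD replicate 1 (adjusted p = 0.0954).

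**Figure D2:**
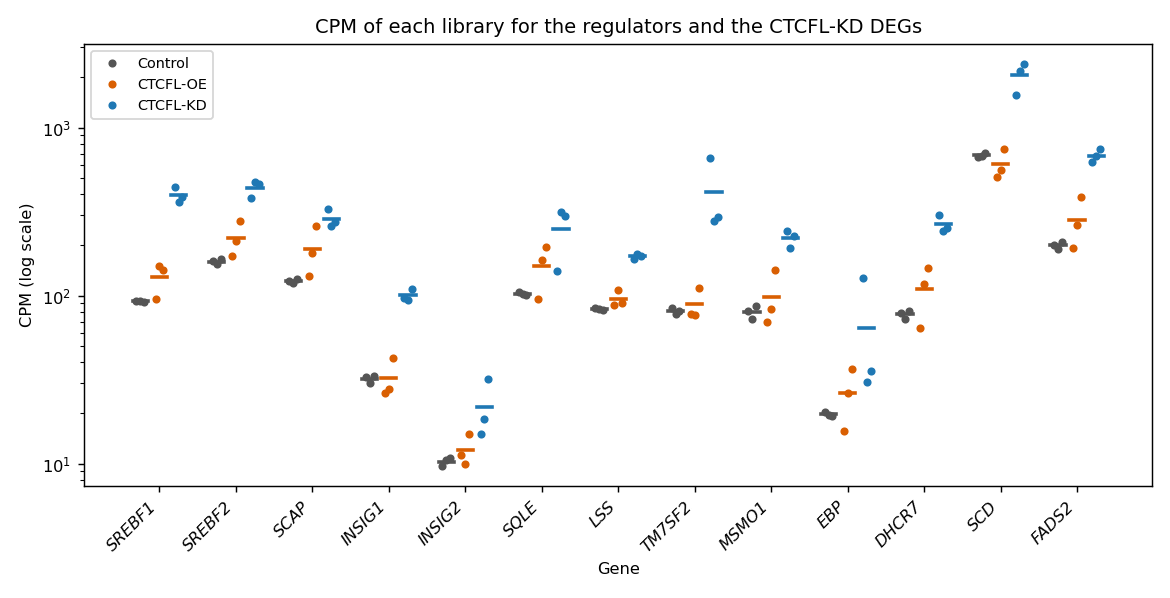
Points are the CPM of single libraries on a log axis for the 13 DEGs of CTCFL-KD, of which 5 are regulators, and horizontal bars are group means of 3 libraries. The CTCFL-KD points lie above the Control points for every gene shown, and for *TM7SF2* and *EBP* one CTCFL-KD library, replicate 1, lies well above the other 2.

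Among the 11 genes from squalene synthesis to cholesterol, all had positive log2 fold changes in CTCFL-KD, 8 passed and 6 were DEGs, with a median of 1.04. Of all genes tested, 21.4% passed higher and 15.3% were DEGs that were higher. *SQLE* on chromosome 8, the squalene epoxidase and a control point of the pathway, had 105, 103 and 101 CPM in Control, 95.4, 163 and 195 CPM in CTCFL-OE and 140, 315 and 297 CPM in CTCFL-KD. Its CTCFL-KD replicate 1 lay within the CTCFL-OE range and the other 2 above it, and the log2 fold change against Control was 1.29 ± 0.32 (adjusted p = 0.0101). *LSS* (chr21:46188141-46228824), which cyclises the epoxide to lanosterol, had 84.2, 83.7 and 82.3 CPM in Control, 88.1, 108 and 90.5 CPM in CTCFL-OE and 165, 177 and 171 CPM in CTCFL-KD. The groups were tight and CTCFL-KD was separate from both, with a log2 fold change of 1.04 ± 0.16 against Control (adjusted p = 0.000579) that fell under the DEG limit, to 0.79, with length and GC trends removed. It was also just under that limit by DESeq2, at 0.998, and without the low-count filter, at 0.96, and passed in each of these.

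*TM7SF2* (chr11:65111845-65116384), a sterol C14 reductase, had the largest log2 fold change of the 32 genes in CTCFL-KD with all 3 libraries, but not without replicate 1. It had 84.5, 77.2 and 81.4 CPM in Control, 77.3, 77.2 and 111 CPM in CTCFL-OE and 662, 277 and 294 CPM in CTCFL-KD. The log2 fold change was 2.34 ± 0.33 (5.07-fold, adjusted p = 0.000396), and it was 1.82 without CTCFL-KD replicate 1, above the DEG limit but below *SREBF1* at 2.01 and *FADS2* at 1.84. *MSMO1* (chr4:165327667-165343164), the C4-methylsterol oxidase whose promoter stretch above holds 3 CCAAT boxes, had 81.4, 72.4 and 86.6 CPM in Control, 70.0, 83.8 and 141 CPM in CTCFL-OE and 243, 191 and 227 CPM in CTCFL-KD. CTCFL-KD again lay above both other groups, by 1.46 ± 0.25 on the log2 scale against Control (adjusted p = 0.00135).

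*DHCR7* (chr11:71428193-71452868), which carries out a last reduction to cholesterol, had 78.8, 72.9 and 81.1 CPM in Control, 64.4, 118 and 147 CPM in CTCFL-OE and 302, 243 and 254 CPM in CTCFL-KD. The CTCFL-OE libraries spread to both sides of Control, while CTCFL-KD was higher than Control by 1.78 ± 0.27 on the log2 scale (3.43-fold, adjusted p = 0.00059). *EBP* (chrX:48521799-48528716), the sterol isomerase, had 20.3, 19.5 and 19.3 CPM in Control, 15.6, 26.2 and 36.8 CPM in CTCFL-OE and 127, 30.6 and 35.4 CPM in CTCFL-KD. One library carried most of its change, since the log2 fold change of 1.71 ± 0.50 (adjusted p = 0.0202) was 0.75 without CTCFL-KD replicate 1 (adjusted p = 0.0401) and no longer a DEG. An unnamed gene on the same strand shares 36.4% of the *EBP* exon bases, so its counts are uncertain. *NSDHL* and *HSD17B7*, which act in removing the C4 methyl groups, passed at 0.75 and 0.68 on the log2 scale (adjusted p = 0.028 and 0.0198), and at 0.45 and 0.57 without CTCFL-KD replicate 1.

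The remaining 3 sterol genes did not pass. *FDFT1*, the squalene synthase at the entry of the branch, was at 0.12 on the log2 scale, and *SC5D*, a desaturase, was at 0.41. *CYP51A1* was at 0.96, and at 1.35 without CTCFL-KD replicate 1 (adjusted p = 0.000989). Other annotated genes on the same strand cover 68.2% of its exon bases, and how the authors' counting assigned those reads is not given in the sources used here.

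The 7 mevalonate genes, which precede the sterol branch, were mixed in CTCFL-KD. Their median log2 fold change was 0.26, 4 were positive and 3 negative, and 1 passed, against 38.2% of all genes tested. Without CTCFL-KD replicate 1 the median was -0.10, 3 were positive and 4 negative, and 4 passed, beside 49.9% of all genes. Of these 4, *MVK* was higher and the other 3 lower. *MVK*, the mevalonate kinase, had 18.5, 17.1 and 19.2 CPM in Control, 15.5, 16.9 and 13.8 CPM in CTCFL-OE and 36.9, 23.7 and 24.1 CPM in CTCFL-KD. It was higher by 0.63 ± 0.20 on the log2 scale (adjusted p = 0.0299) and by 0.39 without CTCFL-KD replicate 1, and at 0.30 with length and GC trends removed it did not pass (adjusted p = 0.136). *PMVK*, the next kinase, had 23.8, 24.6 and 23.2 CPM in Control, 23.3, 18.0 and 14.7 CPM in CTCFL-OE and 72.1, 28.8 and 27.7 CPM in CTCFL-KD. Replicate 1 again stood above the other CTCFL-KD libraries, and the log2 difference of 0.84 ± 0.34 (adjusted p = 0.0726) was 0.24 without it.

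*HMGCS1*, the HMG-CoA synthase, went the other way, with 509, 574 and 547 CPM in Control, 489, 500 and 344 CPM in CTCFL-OE and 209, 417 and 365 CPM in CTCFL-KD. All 3 CTCFL-KD libraries lay below all 3 Control libraries, at -0.72 ± 0.27 on the log2 scale (adjusted p = 0.0528). It passed with the replicate number as a block (-0.75, adjusted p = 0.0438), and without CTCFL-KD replicate 1 (-0.47, adjusted p = 0.0424). An antisense gene covers 37.7% of the *HMGCS1* exon bases, and the strand setting of the counts is not given in the sources used here. *IDI1*, the isopentenyl diphosphate isomerase, had 46.3, 45.4 and 46.2 CPM in Control, 35.4, 30.2 and 28.0 CPM in CTCFL-OE and 47.5, 31.5 and 34.4 CPM in CTCFL-KD. CTCFL-KD replicate 1 lay just above Control and the other 2 below it, and *IDI1* was at -0.28 ± 0.19 with all 3 libraries (adjusted p = 0.254) and at -0.48 without replicate 1 (adjusted p = 0.00736). With length and GC trends removed *IDI1* was at -0.04 and did not pass (adjusted p = 0.873). *ACAT2*, *MVD* and *FDPS* did not pass, with log2 differences of -0.27, 0.33 and 0.26. Without CTCFL-KD replicate 1 these were -0.39, -0.10 and 0.10, and *ACAT2* passed (adjusted p = 0.0293).

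**Figure D3:**
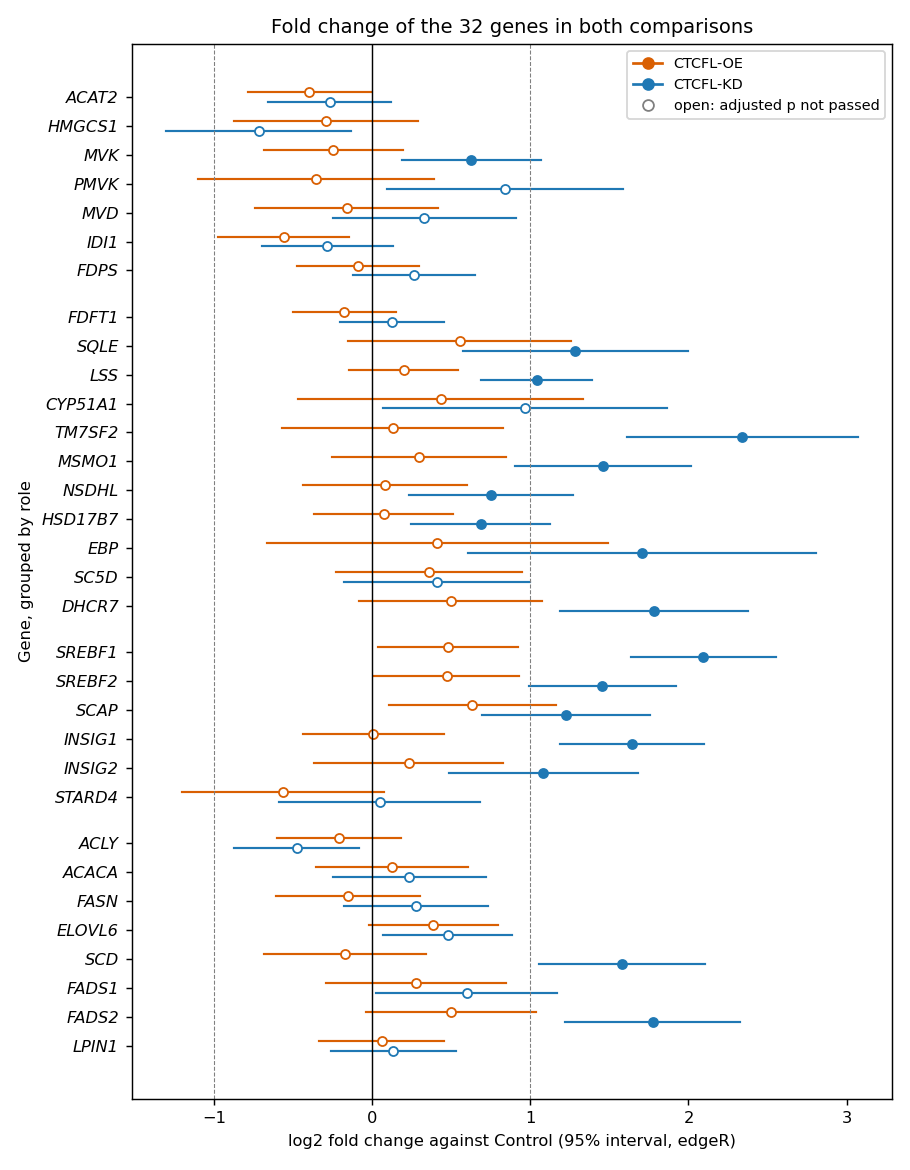
Points are log2 fold changes against Control with 95% intervals from the edgeR fit, for CTCFL-OE and CTCFL-KD, with genes grouped by role, and filled points passed the adjusted p. Filled points are 16 in CTCFL-KD, all to the right of 0, and none in CTCFL-OE, where the mevalonate genes lie to the left of 0.

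Of the 8 fatty acid genes, 2 desaturases were DEGs in CTCFL-KD and the other 6 did not pass, and the median log2 fold change was 0.38. Of all genes tested, 38.2% passed, 21.4% passed higher and 15.3% were DEGs that were higher. *SCD* (chr10:100347233-100364826) had 669, 680 and 704 CPM in Control, 511, 563 and 750 CPM in CTCFL-OE and 1557, 2183 and 2387 CPM in CTCFL-KD. CTCFL-KD was separate from both other groups and 2.99-fold higher than Control (log2 1.58 ± 0.24, adjusted p = 0.000565). *FADS2* (chr11:61792980-61867354), the delta-6 desaturase of polyunsaturated fatty acids, had 199, 190 and 209 CPM in Control, 193, 264 and 387 CPM in CTCFL-OE and 624, 675 and 747 CPM in CTCFL-KD. The lowest CTCFL-KD library exceeded the highest CTCFL-OE library, and the log2 fold change against Control was 1.78 ± 0.25 (adjusted p = 0.000394).

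The enzymes that make the fatty acid chain itself differed less from Control. *ACLY*, the ATP citrate lyase, had 127, 136 and 141 CPM in Control, 120, 115 and 113 CPM in CTCFL-OE and 75.1, 109 and 106 CPM in CTCFL-KD, a log2 difference of -0.48 ± 0.18 in CTCFL-KD (adjusted p = 0.0554). Both other groups lay wholly below Control for this gene, and in CTCFL-KD it passed without replicate 1 (-0.32, adjusted p = 0.0246). *ELOVL6*, the elongase of palmitate, had 56.3, 60.1 and 60.4 CPM in Control, 63.3, 71.6 and 96.2 CPM in CTCFL-OE and 73.9, 86.7 and 85.5 CPM in CTCFL-KD. Both other groups lay wholly above Control, and the log2 difference in CTCFL-KD was 0.48 ± 0.19 (adjusted p = 0.0624). *FASN* was at 659 ± 21.8 CPM in Control and 799 ± 147 CPM in CTCFL-KD, a log2 difference of 0.28 with a 95% interval from -0.18 to 0.73. Without CTCFL-KD replicate 1 the difference was 0.43 and passed (adjusted p = 0.0281). With length and GC trends removed it was -0.16 and did not pass (adjusted p = 0.502). *ACACA*, *FADS1* and *LPIN1*, the acetyl-CoA carboxylase, the delta-5 desaturase and a phosphatidate phosphatase, were at 0.23, 0.60 and 0.13 on the log2 scale. Without CTCFL-KD replicate 1 they were at 0.46, 0.73 and 0.30, and these 3 also passed, as did *ELOVL6* at 0.55. With length and GC trends removed these 3 were at 0.03, 0.50 and 0.06 and did not pass, while *ELOVL6* passed at 0.61.

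CTCFL-OE was compared with Control to ask the same of raised *CTCFL*. None of the 32 genes had an adjusted p under 0.1 in edgeR, the limit set for this comparison, against 3.15% of all genes tested (1.99% higher and 1.16% lower), and there was no DEG among them, against 1.37% of all genes higher and 0.702% lower by that rule. The unadjusted p was under 0.05 for 5 members, which were *ACAT2*, *IDI1*, *SREBF1*, *SREBF2* and *SCAP*, against 17.7% of all genes. DESeq2 called 1, *IDI1* (-0.56 on the log2 scale, adjusted p = 0.0679), beside 7.62% of the genes it gave an adjusted p, and edgeR on the 2 groups alone called 6, beside 20.2% of all genes. The median log2 difference of the members was 0.10, with all genes tested at -0.01, and 20 were positive and 12 negative. Of the members, 6 had all CTCFL-OE libraries above Control, against 16.3% of all genes, and 8 had all of them below, against 20.8%.

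All 7 mevalonate genes had negative log2 differences in CTCFL-OE, with a median of -0.29, and 5 had every CTCFL-OE library below every Control library. Of the 17794 genes tested, 9050 were negative, and 20.8% had every CTCFL-OE library below every Control library. *IDI1*, listed above, had the smallest unadjusted p of them, at -0.56 ± 0.19 (adjusted p = 0.165). The other 5 negative genes were *STARD4*, the lowest of the 32 at -0.56, with *ACLY*, *FDFT1*, *SCD* and *FASN* between -0.21 and -0.16. In the sterol branch 10 of 11 were positive with a median of 0.29, and of the regulators 5 of 6 were positive with a median of 0.35. *SREBF1*, *SREBF2* and *SCAP* lay in CTCFL-OE wholly above Control, at 0.48 ± 0.20, 0.47 ± 0.21 and 0.63 ± 0.24 on the log2 scale, with adjusted p of 0.246, 0.273 and 0.206. The unadjusted 95% interval ran from 0.04 to 0.92 for *SREBF1* and from 0.01 to 0.93 for *SREBF2*, so both excluded 0 before the adjustment over all genes and neither gene passed after it. *INSIG1* was at 0.01 with an interval from -0.44 to 0.45.

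The CTCFL-OE libraries differed among themselves more than the Control libraries did. Summed over the 32 genes they held 3586, 4185 and 4717 CPM, which spans the Control range on both sides. In replicate 1, 8 of the 32 genes exceeded the Control mean, in replicate 2 16 did and in replicate 3 21 did. The sterol genes followed the same division, with sums of 659, 829 and 1059 CPM, against 692 to 726 CPM in Control. The mevalonate genes did not, with sums of 737, 737 and 559 CPM against 779 to 851 CPM in Control, and none of the 7 exceeded its Control mean in any CTCFL-OE library. Mitochondrial counts were 7.40, 12.4 and 14.9% in the same replicates, and their part in these values was not tested. Without CTCFL-OE replicate 1, 7 members passed, beside 15.1% of all genes, with *DHCR7*, *SCAP* and *SREBF1* at adjusted p of 0.0417, 0.0458 and 0.0489, *FADS2* and *SREBF2* also higher, and *ACAT2* and *IDI1* lower. Without CTCFL-KD replicate 1, which enters the shared estimate of spread, 8 members passed in CTCFL-OE, beside 27.4% of all genes.

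CTCFL-KD was also set directly against CTCFL-OE, the contrast of the lowest and highest *CTCFL*. Of the 32 genes, 13 passed an adjusted p under 0.05, against 26.8% of all genes, and all 13 were higher in CTCFL-KD, against 15.3% of all genes in that direction and 11.5% in the other. DEGs numbered 8, all higher, against 10.6% of all genes higher and 6.42% lower by that rule. The CTCFL-KD libraries lay above all CTCFL-OE libraries for 16 members and below them for 1, against 20.3% and 19.5% of all genes. The median log2 difference was 0.61, with all genes at 0.04. The regulators *SREBF1* and *INSIG1* were higher by 1.61 ± 0.20 and 1.64 ± 0.21 on the log2 scale (adjusted p = 0.00027 and 0.000269). *SREBF2* was higher by 0.99 ± 0.21 (adjusted p = 0.00587) and *INSIG2* by 0.85 ± 0.27 (adjusted p = 0.039), while *SCAP* at 0.59 ± 0.24 did not pass (adjusted p = 0.0885). The *INSIG2* call was lost without any one Control library and without CTCFL-OE replicate 1 or 2 or CTCFL-KD replicate 3, with adjusted p from 0.0618 to 0.148.

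In the sterol branch, *TM7SF2*, *DHCR7* and *MSMO1* were higher in CTCFL-KD than in CTCFL-OE by 2.21 ± 0.33, 1.28 ± 0.27 and 1.17 ± 0.25 on the log2 scale, and *LSS* by 0.84 ± 0.16. *SQLE* and *EBP* did not pass, with adjusted p of 0.112 and 0.0737, and *SQLE* passed without CTCFL-KD replicate 1 at 1.02 (adjusted p = 0.00653), whereas *EBP* went from 1.30 to 0.34 without it (adjusted p = 0.344). The desaturases *SCD* and *FADS2* were higher by 1.75 ± 0.24 and 1.28 ± 0.25 (adjusted p = 0.000437 and 0.00362). The kinases *MVK* and *PMVK* were higher by 0.87 ± 0.20 and 1.19 ± 0.34 (adjusted p = 0.0093 and 0.0258), and *PMVK* was at 0.60 without CTCFL-KD replicate 1. The *PMVK* call was lost in the fit of the 2 groups alone (adjusted p = 0.0679) and without CTCFL-OE replicate 2 or 3 (0.0866 and 0.0919). *HSD17B7* passed at an adjusted p of 0.0427, and did not with the replicate block (0.0661) or without each of 6 libraries in turn. Both contrasts with CTCFL-KD use the same 3 CTCFL-KD libraries, and both contrasts with Control the same 3 Control libraries, so they are not independent of each other.

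Other lipid genes were read from 5 lists of 86 genes in all, chosen by function. Of 20 genes for SREBP processing and sterol transport, 14 passed in CTCFL-KD, all higher, against 38.2% of all genes passed and 21.4% passed higher, and the median log2 fold change was 0.92. Among those with the smallest p were *GRAMD1A*, a sterol transporter of the endoplasmic reticulum, at 1.28 ± 0.18, and *ERLIN2*, which takes part in protein degradation there, at 1.41 ± 0.23. None of the 20 passed in CTCFL-OE by edgeR, where 4 had an unadjusted p under 0.05, against 17.7% of all genes, and DESeq2 called 2, beside 7.62% of the genes it gave an adjusted p.

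The list of sterol efflux and LXR genes held 9, of which 7 were tested and 4 passed in CTCFL-KD, all higher, against the same 38.2% and 21.4% of all genes, with a median of 0.91. *ABCG1*, a sterol exporter and LXR target, had 0.902, 1.28 and 1.32 CPM in Control, 1.41, 1.78 and 1.23 CPM in CTCFL-OE and 38.3, 30.8 and 40.5 CPM in CTCFL-KD. Its CTCFL-KD libraries stood far above all others, with a log2 fold change of 4.96 ± 0.24 (adjusted p = 7.2e-07). *CYP27A1*, which makes an oxysterol, was at least 24.7-fold higher in CTCFL-KD than in Control, where every library held 3 counts or fewer. *ABCA1*, the exporter to lipid-poor particles, had 5.31 to 6.33 CPM in Control and 11.4, 29.4 and 32.4 CPM in CTCFL-KD and was higher by 2.11 ± 0.34 on the log2 scale (adjusted p = 0.000825). With *CYP27A1* at this bound the list's median was the same.

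Of 24 other genes of fatty acid and glycerolipid synthesis, 12 passed in CTCFL-KD, 9 higher and 3 lower, with a median of 0.41. Of all genes tested, 38.2% passed, 21.4% higher and 16.8% lower. *SCD5*, *ACSS2* and *DGAT1*, a second stearoyl-CoA desaturase, the cytosolic acetyl-CoA synthetase and a triglyceride-forming acyltransferase, were higher by 1.16 ± 0.18, 1.08 ± 0.18 and 1.50 ± 0.27. Fatty acid oxidation had 4 of 19 genes passed, all higher, against 38.2% of all genes in either direction and 21.4% higher. Among them *CPT1C*, a brain-type carnitine palmitoyltransferase, was at 2.36 ± 0.23, with *HADH* and *CPT2* at 0.66 and 0.56. The non-sterol isoprenoid branch, which uses mevalonate products for prenylation and dolichol, had 5 of 14 passed, against the same 38.2% of all genes. Of these 2 were higher, with *SRD5A3* at 1.50 ± 0.26, and 3 lower, with the prenyltransferase subunits *RABGGTB* and *PGGT1B* at -0.92 ± 0.18 and -0.81 ± 0.17.

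In CTCFL-OE, 1 of the 24 genes of fatty acid and glycerolipid synthesis passed and 2 of the 19 of oxidation, and none of the other 3 lists, against 3.15% of all genes. Among them, the elongase *ELOVL3* was higher by 1.30 ± 0.29 (adjusted p = 0.0614) and *CPT1C* by 0.90 ± 0.22 (adjusted p = 0.0797). None of the 3 calls remained without any one Control library.

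**Figure D4:**
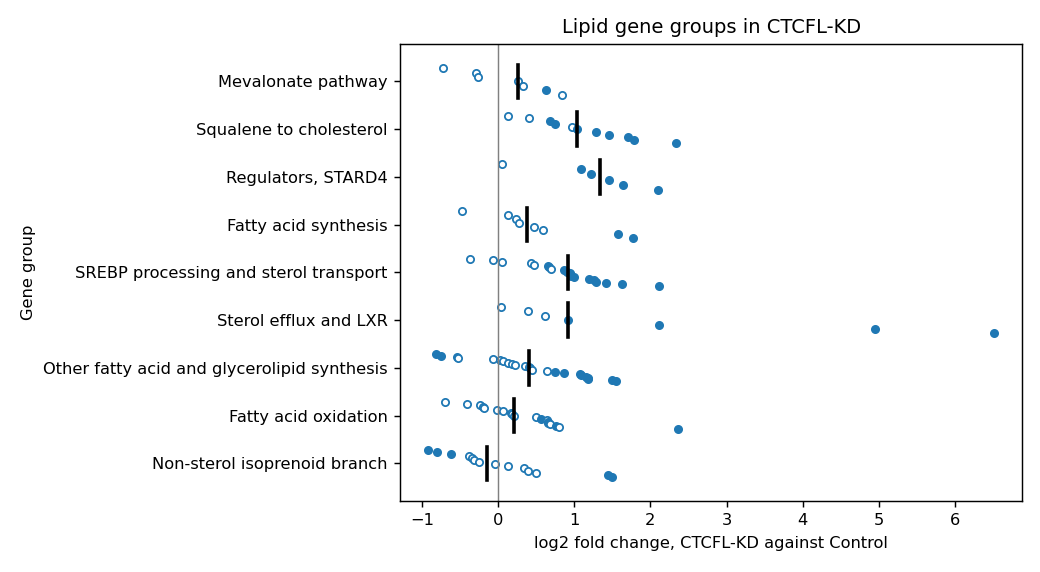
Each point is the log2 fold change of a gene in CTCFL-KD against Control, in rows for the 4 roles of the 32 genes and the 5 further lists, with black bars for medians and filled points for an adjusted p under 0.05. Filled points are densest on the right in the sterol, regulator and SREBP processing rows, and the rightmost point, *CYP27A1*, is a fitted value that depends on the prior count and not a measured ratio.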

How the data were processed

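Poly(A) RNA of OVCAR3 cells was sequenced from stranded libraries. According to the study's methods and the processing notes of the labels, the authors used Trimmomatic for trimming, STAR for alignment to GRCh38 and featureCounts for counting per gene. They deposited counts of reads per gene, without normalization, and the 9 library files equalled the columns of the matrix. The annotation, the strand setting and the handling of reads with several alignments are not given in the sources used here. The labels also list kallisto, whose role is not given. Names and positions came from GENCODE release 44, which named 60463 of 60660 identifiers.

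After a low-count filter (filterByExpr) and TMM scaling, edgeR 4.0.16 in R 4.3.3 fitted a robust quasi-likelihood model to all 9 libraries with the group as the only factor, with Benjamini-Hochberg adjustment. An adjusted p under 0.1 was required in CTCFL-OE against Control and under 0.05 in CTCFL-KD against Control, and a DEG also had a log2 fold change beyond 1, as in the study's methods, which used DESeq2. The study's methods give no limit for CTCFL-KD against CTCFL-OE, where 0.05 was chosen here. The standard error is the absolute log2 fold change over the square root of F. TPM used the length of the GENCODE canonical transcript. Totals of 14332622 to 24490080 counts limit the precision, and a floor of 3 counts stands for a count of 0. Floors cover counting error only, and reads carried no molecular identifiers. Tables and figures used Python 3.11.15, pandas 2.3.3, numpy 2.4.6 and matplotlib 3.10.9, and the fits were tested on simulated data.

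Values in every library are given for each member that was a DEG, for SREBF1, SREBF2, SCAP, INSIG1 and INSIG2, and in each role for the 3 genes with the smallest p in CTCFL-KD and the 1 with the smallest p in CTCFL-OE. From each further list, up to 3 genes that passed in CTCFL-KD and 1 in CTCFL-OE are named, by smallest p, and *CPT1C* in CTCFL-OE was added after its values were seen. Of the genes this rule names, 2 are not reported here. The members and lists were chosen with earlier results of these data known.

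Over 14490 genes, same-numbered CTCFL-KD and Control libraries deviated together from the means of their groups, with correlations of 0.280, 0.162 and 0.203, all above 0.1, so the replicate number was also fitted as a block. With length and GC trends removed these were 0.105, 0.124 and 0.0976. For CTCFL-OE and Control they were -0.033, 0.198 and -0.047 before this removal. For CTCFL-KD and CTCFL-OE they were -0.007, 0.060 and 0.010 before it and 0.102, 0.170 and 0.051 after it. The alternatives were DESeq2 1.42.0, edgeR on 2 groups, scaling by RLE or by the upper quartile, leaving out the filter, requiring 10 counts in each library, the replicate block, length and GC trends removed by splines, and each library left out in turn.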

Additional observations from a re-analysis of the deposited data

Results flagged for a closer look

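2 genes, *MVK* and *FDFT1*, had every CTCFL-OE library below every Control library and every CTCFL-KD library above, a pattern that 1.65% of all genes tested showed. For *MVK* the difference between CTCFL-KD and CTCFL-OE was 0.87 on the log2 scale (edgeR, adjusted p = 0.0093). *MVK* was at -0.25 in CTCFL-OE against Control (adjusted p = 0.545) and at 0.63 in CTCFL-KD (adjusted p = 0.0299), and the difference between the groups passed in 18 of 18 alternatives. For *FDFT1* the difference was 0.30 and did not pass (edgeR, adjusted p = 0.154), with -0.18 in CTCFL-OE (adjusted p = 0.556) and 0.12 in CTCFL-KD (adjusted p = 0.535), so it passed in no comparison with all 9 libraries, and between CTCFL-KD and CTCFL-OE it passed without CTCFL-KD replicate 1 (0.29, adjusted p = 0.0433).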

How the results depend on the processing

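The 16 members called in CTCFL-KD stayed between 16 and 21 under other tools, scalings, filters, the replicate block and removed trends, and between 12 and 26 with single libraries left out. The block gave 17 and added HMGCS1 alone in CTCFL-KD. No called value changed its direction. Of 2318 single values under the alternatives, 2091 kept their call or stayed within their limit, 80 gained a call, 41 lost one and 106 moved beyond their limit. That limit was 1.5 times for a count. For the median over the members it was the SD of the medians of the libraries in the first-named group. In CTCFL-OE, where no member passed, DESeq2 called 1, edgeR on the 2 groups 6, and single libraries left out gave 0 to 8, the most without CTCFL-KD replicate 1. Members higher in CTCFL-KD than in CTCFL-OE numbered 13, and 10 to 19 with single libraries left out. The further lists had 3 calls in CTCFL-OE, against 9 by DESeq2, 15 with 2 groups, 6 with upper-quartile scaling, 11 without the low-count filter, 1 with the replicate block, 7 with trends removed, 7 with trends removed and the block, and 0 to 22 with single libraries left out. Their 25 calls between CTCFL-KD and CTCFL-OE became 11 with 2 groups, and 14 to 39 with single libraries left out. Over all genes, 561 calls in CTCFL-OE became 1374 by DESeq2, 3450 with 2 groups, 1517 without the filter, 1769 with trends removed, 1832 with the block as well, and 44 to 5040 with single libraries left out. The 4771 between CTCFL-KD and CTCFL-OE became 2668 with 2 groups, and 3181 to 7297 with single libraries left out. The cause of these shifts was not tested. Fewer samples in a fit leave fewer degrees of freedom. The block gave 0 member calls in CTCFL-OE against Control and 12 between CTCFL-KD and CTCFL-OE. The replicate numbers did not pair CTCFL-OE with Control. They matched CTCFL-KD with CTCFL-OE in every replicate only when length and GC trends were removed. Low counts limit *CTCFL*, and among the members *CYP51A1* most, with 39 counts in CTCFL-KD replicate 1.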
